A study of Mus musculus with 6 samples.

Results

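The genes described are the chains of the interleukin receptors built around the common gamma chain, together with the IL-6 receptor chains. The rule named 9 genes, Il2ra, Il2rb, Il2rg, Il7r, Il4ra, Il21r, Il15ra, Il6ra and Il6st. Of these, 7 had a row among the 10772 rows of the deposited table, and Il2ra and Il6ra had none and are not analysed here. RNA came from natural killer T (NKT) cells of mouse thymus, T cells whose nearly invariant receptor recognises lipids presented by CD1d. The sorted cells, named P1, were stained by a PBS-57 loaded CD1d tetramer and were negative for CD24, NK1.1 and CD44. Wild-type (WT) cells, with 3 libraries, were compared with cells labelled UTX/JMJD3 DKO, also with 3, and in each group 2 libraries were female and 1 was male. All mice had a mixed C57BL/6 and 129 background. Kdm6a and Kdm6b encode UTX and JMJD3, demethylases of the repressive histone mark H3K27me3. The sources used here do not give the age of the mice, the driver of the deletion or any pooling of animals. They also do not say that the libraries of a genotype came from separate mice, and the p-values reflect spread among libraries that may be technical.

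The common gamma chain, encoded by Il2rg, is shared by the receptors for IL-2, IL-4, IL-7, IL-9, IL-15 and IL-21. Each of these receptors pairs it with a private chain, and IL-2 and IL-15 also share the beta chain encoded by Il2rb. The receptors signal through the kinases JAK1 and JAK3 to STAT proteins. IL-7 supports the survival of thymocytes and naive T cells, and IL-15 is known for its role in the survival and maturation of NKT cells. The IL-6 receptor does not contain the gamma chain and signals through gp130, encoded by Il6st.

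Values were RPKM, that is read counts divided by gene length and by the library's mapped reads. The RPKM steps implied 32.4 M and 34.4 M mapped reads for replicate 1 of WT and DKO, whose columns are headed Set1, and 5.04 M to 7.24 M for the other 4 libraries. The Set1 columns give the genotype but no sex, and were matched to the libraries titled female 1 by the number, although the description of that DKO library gives 2, so their sex and replicate number are less sure than their genotype. The Set1 libraries also stood apart in content. The summed level of the immature thymocyte markers (Ptcra, Dntt, Cd8a, Cd8b1 and Cd4, 5 of 7 listed genes with a row) was RPKM 459 and 473 in the Set1 libraries and 29.2 to 51.8 in the other 4, and Dntt was at 84.2 and 65.8 against at most 1.73. Values are therefore also given for the Set1 pair and for the 4 shallower libraries apart. The T cell identity markers (8 of 8 with a row) summed to RPKM 1787 to 1882 in WT against 1764 to 1907 in DKO. Within that sum, members went in opposite directions without overlap between the groups. Thy1, a surface protein of T cells, was at RPKM 149, 270 and 202 in WT replicates 1 to 3 and at 38.5, 0.732 and 41.7 in DKO (limma, adjusted p = 0.212). Cd5, an inhibitor of T cell receptor signals, was at 162 ± 17.2 in WT against 276 ± 17.3 in DKO (SD, n = 3 each; limma, adjusted p = 0.186). The deleted genes overlapped between the groups, Kdm6a at 4.62 ± 2.57 in WT against 4.59 ± 0.937 in DKO and Kdm6b at 2.80 ± 1.05 and 1.66 ± 0.834 (SD, n = 3 each), and since deletions can remove single exons, a whole-gene value is no check of the genotype. Every row of the table exceeded RPKM 3 in at least 2 libraries. Kdm6b did so only in WT libraries, which favours lower DKO values. Of the 7 genes, 4 met that level in at least 2 WT libraries and 7 in at least 2 DKO libraries, so Il4ra, Il6st and Il15ra were in the table only with the help of DKO libraries, and counts over the 7 genes are given as a description.

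The regions just before the start of 4 of these genes are shown because Il7r, Il4ra and Il6st were the chains whose interval for the difference lay above 0 before adjustment, while Il21r is the direct neighbour of Il4ra on chromosome 7 with levels that overlapped between the genotypes. They are the 250 bases before the RefSeq start in GRCm38.p6, a later build than the mm9 named for these data, and are written 5′ to 3′ on the strand of the gene. Capitals mark matches to 4 motifs searched on both strands, TTCNNNGAA (bound by STAT proteins), TGTGGT (Runx), TCACACC (T-box) and AGGAAG (Ets), among which no matches overlapped here.
Il7r, minus strand, chr15:9529877-9530126: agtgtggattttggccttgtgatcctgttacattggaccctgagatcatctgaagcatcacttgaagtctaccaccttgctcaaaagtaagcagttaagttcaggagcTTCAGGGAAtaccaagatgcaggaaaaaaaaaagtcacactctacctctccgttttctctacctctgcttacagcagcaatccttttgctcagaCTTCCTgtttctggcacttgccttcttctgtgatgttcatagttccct
Il4ra, plus strand, chr7:125552021-125552270: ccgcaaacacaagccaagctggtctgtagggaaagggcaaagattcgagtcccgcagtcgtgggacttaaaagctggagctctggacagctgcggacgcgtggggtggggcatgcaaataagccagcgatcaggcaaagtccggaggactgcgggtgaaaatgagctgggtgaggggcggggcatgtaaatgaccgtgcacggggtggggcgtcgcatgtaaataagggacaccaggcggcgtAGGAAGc
Il21r, plus strand, chr7:125603179-125603428: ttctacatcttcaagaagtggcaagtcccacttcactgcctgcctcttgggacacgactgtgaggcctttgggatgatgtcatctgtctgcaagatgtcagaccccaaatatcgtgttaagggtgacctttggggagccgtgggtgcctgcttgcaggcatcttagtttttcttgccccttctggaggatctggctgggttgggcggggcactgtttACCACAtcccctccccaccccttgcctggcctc
Il6st, plus strand, chr13:112463820-112464069: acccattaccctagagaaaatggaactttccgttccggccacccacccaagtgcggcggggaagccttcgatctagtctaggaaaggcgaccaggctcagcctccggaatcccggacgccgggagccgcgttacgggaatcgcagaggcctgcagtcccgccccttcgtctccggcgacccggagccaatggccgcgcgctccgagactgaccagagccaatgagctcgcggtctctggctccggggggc
The first 30 bases after the start were found in an annotated GENCODE transcript of the gene for Il4ra, Il21r and Il6st but not for Il7r, so the Il7r window may not lie directly before the start of an annotated transcript. The Il7r window held the only STAT match among the member windows, TTCAGGGAA, and an Ets match on the other strand. The Il4ra window held 1 Ets match close to the start, the Il21r window 1 Runx match on the other strand, and the Il6st window none of the 4 motifs. Of 32851 promoter windows of the same length, 7.02% held the STAT motif, 14.0% the Runx motif, 3.33% the T-box motif and 29.5% the Ets motif. The windows differed in base composition, with 66.0% G or C and 26 CpG dinucleotides for Il6st, 59.6% and 17 for Il4ra, 55.6% and 4 for Il21r, and 44.0% and 1 for Il7r, against a median of 52.4% G or C over all windows. A match is a description of the letters and not a bound site. A promoter sequence was found for 8 of the 9 genes, and Il2rb had none.

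The receptor chains differed in direction between the genotypes, and none passed the test across all genes. On levels per length, the private chains Il7r and Il4ra and the gp130 gene Il6st were at 2.28, 4.01 and 3.05 times the WT mean in DKO, the shared beta chain Il2rb was at 0.339 of it, and the common gamma chain Il2rg was at 0.961 of it. With limma on log2(RPKM + 1), 0 of the 7 reached an adjusted p of 0.05, which 0.0842% of the 10694 genes tested did. With voom on the recovered reads 0 of all genes did, so the 0 of the 7 there says nothing particular to the chains. At an unadjusted p of 0.05, 1 of the 7 lay lower (Il2rb) and 3 lay higher (Il7r, Il4ra and Il6st), where 8.14% of all genes lay lower and 2.88% higher at that p. The groups did not overlap for 1 lower gene (Il2rb) and 2 higher genes (Il4ra and Il6st), against 11.4% and 5.71% of all genes. Il4ra and Il6st were in the table only with the help of DKO libraries, which favours higher DKO values, so these counts are a description. The median log2 difference of the 7 was 0.21, which is the value of Il15ra, with a 95% interval of -1.84 to 2.26. It is thus no measure of a shared shift of the chains. The median of all genes was -0.11, the shift against which each difference is to be read. In sorted bulk RNA, fewer cells with a transcript and less of it per cell cannot be told apart.

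**Figure D1:**
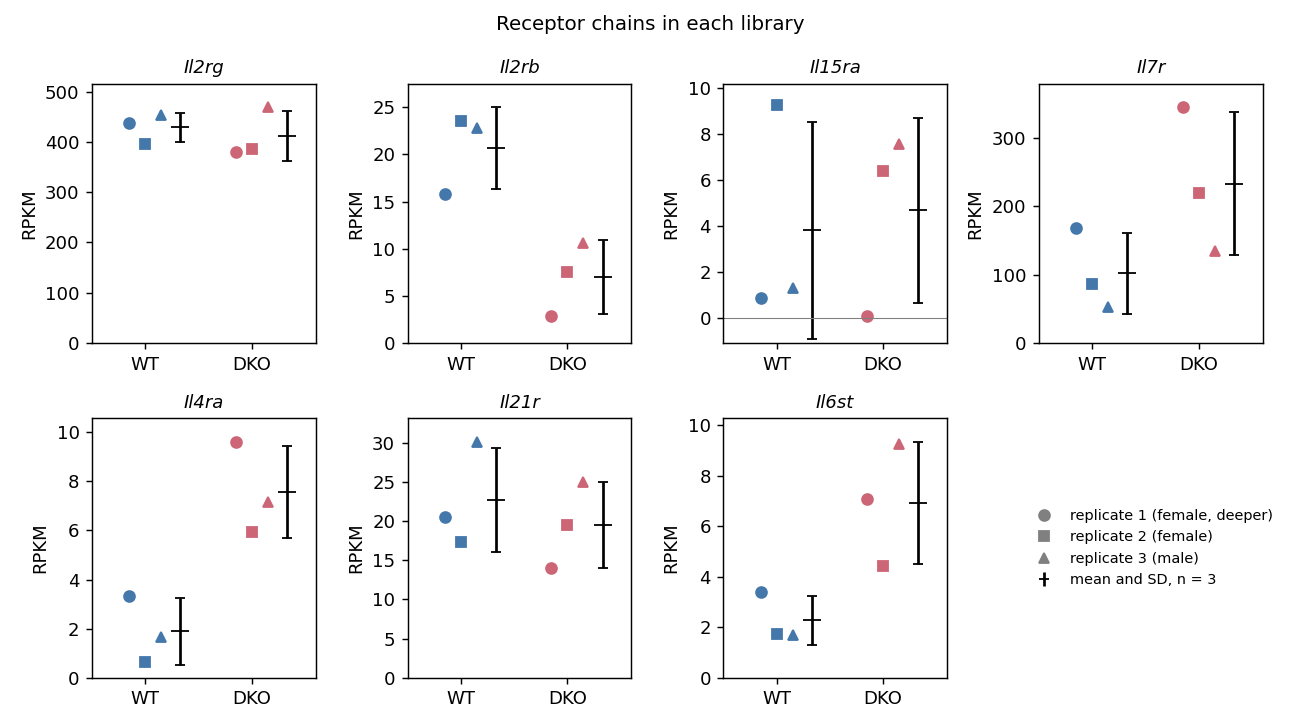
RPKM of the 7 receptor chains with a row, in each WT and DKO library (symbols mark replicates), with the mean and SD over 3 libraries in black. Il2rb was lower and Il4ra and Il6st were higher in every DKO library than in every WT library, Il7r overlapped, and Il2rg lay between 380 and 469 in all 6 libraries.

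Il2rg, the shared gamma chain, was by far the most abundant of these transcripts. It was at RPKM 437, 397 and 453 in WT replicates 1 to 3 and at 380, 387 and 469 in DKO replicates 1 to 3. The groups overlapped and spanned a narrow range, resting on 5542 to 34362 reads per library. Its mean was 429 ± 28.9 in WT against 412 ± 49.6 in DKO (SD, n = 3 each), above the mean of 96.8% of all genes in WT. The log2 difference was -0.06 with a 95% interval of -0.47 to 0.34 (limma, adjusted p = 0.920), so changes beyond 0.47 log2 units in either direction lay outside the interval.

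Il2rb, the beta chain that IL-2 and IL-15 receptors share, was lower in the DKO libraries. It was at RPKM 15.8, 23.6 and 22.9 in WT replicates 1 to 3 and at 2.89, 7.50 and 10.7 in DKO replicates 1 to 3. The highest DKO library stayed below the lowest WT library, and the Set1 library was the lowest of each group. The means were 20.7 ± 4.32 and 7.02 ± 3.90 (SD, n = 3 each), a ratio of 2.95, and the fitted log2 difference was -1.56 ± 0.46 (SE; limma, adjusted p = 0.257). The difference was -2.11 in the Set1 pair and -1.28 in the 4 shallower libraries (limma, adjusted p = 0.419). The gene stood above 59.4% of all genes by its mean in WT and above 29.6% in DKO. Gamma-delta T cell markers with a row moved with the same groups, while Trdc and Tcrg-V6 had no row. Tcrg-C1, Tcrg-C2 and Sox13 (3 of 5 listed genes) summed to RPKM 491 to 598 in WT against 109 to 120 in DKO. Tcrg-C1 and Tcrg-C2 passed the test across all genes (limma, adjusted p = 0.0287 and 0.0124). The part of these markers in the Il2rb values was not tested. Of the NK cell markers only Gzma (1 of 5) had a row, at 3.97 to 4.65 in WT and at 6.34, 0 and 0.165 in DKO, and its part was not tested either. Of the genes for the antigens that the sort gated against, Cd24a and Cd44 overlapped between the genotypes. Cd24a was at RPKM 7.02 ± 3.66 in WT against 9.06 ± 11.2 in DKO, and Cd44 at 2.3 ± 1.45 and 2.17 ± 2.31 (SD, n = 3 each). Klrb1c, which encodes the gated antigen NK1.1, was lower in DKO, as Il2rb was. It was at RPKM 10.8, 3.51 and 5.59 in WT replicates 1 to 3 and at 0.784, 0.552 and 0.727 in DKO, without overlap (limma, adjusted p = 0.215). Within WT its order over the libraries was the reverse of that of Il2rb. The myeloid marker Cd68 (1 of 5 listed genes with a row) was at 8.85, 5.82 and 4.26 in WT and at 0, 0 and 3.08 in DKO, also without overlap (limma, adjusted p = 0.275). Klrb1c, Cd68, Gzma and Sox13 were in the table only with the help of WT libraries. The part of Klrb1c and Cd68 in the Il2rb values was not tested.

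Il15ra, the private chain that binds IL-15, was near the lower limit of the table, and on the log2 scale its difference had the largest standard error of the 7, 0.92. It was at RPKM 0.895, 9.25 and 1.32 in WT replicates 1 to 3, from 48, 111 and 11 reads. In DKO replicates 1 to 3 it was at 0.105, 6.39 and 7.58, from 6, 75 and 81 reads. Both genotypes held a Set1 library near silence and at least 1 library above RPKM 6, and the groups overlapped. The log2 difference was 0.21 with a 95% interval of -1.84 to 2.26 (limma, adjusted p = 0.951), -0.78 in the Set1 pair and 0.71 in the 4 shallower libraries. The interval included differences as large as those of Il7r and Il6st in either direction.

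Il7r, the private chain of the IL-7 receptor, was the second most abundant chain and was higher in DKO in each set of libraries, though the groups overlapped. Per library it was at RPKM 168, 85.6 and 52.6 in WT replicates 1 to 3 and at 345, 219 and 135 in DKO replicates 1 to 3. The overlap came from WT replicate 1, which lay above DKO replicate 3, and in both genotypes the Set1 library was the highest and the male library the lowest. The means were 102 ± 59.2 and 233 ± 105 (SD, n = 3 each), and the fitted log2 difference was 1.24 ± 0.44 (SE; limma, adjusted p = 0.321). It was 1.03 in the Set1 pair, and 1.34 in the 4 shallower libraries, where the groups did not overlap (limma, adjusted p = 0.370). Its mean stood above that of 88.6% of all genes in WT against 94.8% in DKO.

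Il4ra, the private chain of the IL-4 receptor, was the scarcest chain in WT. Levels were RPKM 3.34, 0.648 and 1.67 in WT replicates 1 to 3, from 554, 24 and 43 reads. In DKO replicates 1 to 3 it was at 9.61, 5.93 and 7.18, from 1692, 215 and 237 reads. Every DKO library exceeded every WT library, and again the Set1 library was the highest of its group. The means were 1.89 ± 1.36 and 7.57 ± 1.87 (SD, n = 3 each), and the fitted log2 difference, which the pseudocount of 1 makes smaller than that of the RPKM means, was 1.66 ± 0.53 (SE; limma, adjusted p = 0.277). It was 1.29 in the Set1 pair and 1.84 in the 4 shallower libraries (limma, adjusted p = 0.437).

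Il21r, the private chain of the IL-21 receptor, lies next to Il4ra and did not share its pattern. Its RPKM was 20.6, 17.3 and 30.1 in WT replicates 1 to 3 and at 14.0, 19.5 and 25.0 in DKO replicates 1 to 3. The groups overlapped throughout, and the male library was the highest of each. The log2 difference was -0.21 with a 95% interval of -0.995 to 0.58 (limma, adjusted p = 0.854). The interval for Il4ra ran from 0.48 to 2.84, and the difference between these neighbours was not tested.

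Il6st, which encodes the signal-transducing chain gp130 of the IL-6 family of receptors, was higher in every DKO library. Libraries gave RPKM 3.38, 1.74 and 1.69 in WT replicates 1 to 3, from 590, 68 and 46 reads. In DKO replicates 1 to 3 it was at 7.08, 4.43 and 9.26, from 1315, 169 and 322 reads. The lowest DKO library lay above the highest WT library by RPKM values of 4.43 against 3.38. The means were 2.27 ± 0.960 and 6.92 ± 2.42 (SD, n = 3 each), and the fitted log2 difference was 1.27 ± 0.50 (SE; limma, adjusted p = 0.384). It was 0.88 in the Set1 pair and 1.46 in the 4 shallower libraries (limma, adjusted p = 0.496). Il31ra, the neighbour of Il6st and a receptor chain of the same class, had no row.

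**Figure D2:**
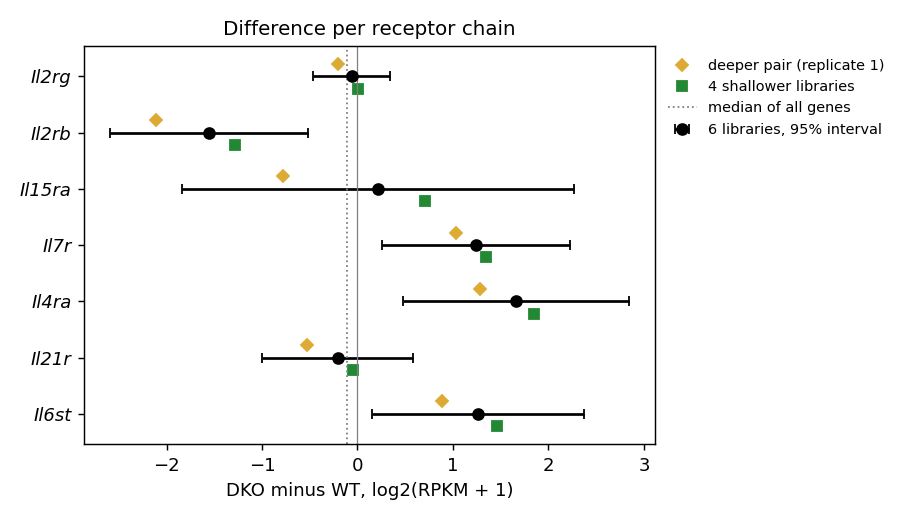
DKO minus WT difference of each receptor chain on the log2(RPKM + 1) scale, with limma's 95% interval over 6 libraries (black), the Set1 pair (diamonds) and the 4 shallower libraries (squares). The intervals of Il2rb, Il7r, Il4ra and Il6st do not include 0 before adjustment, and only for Il15ra and Il2rg do the Set1 pair and the shallower libraries lie on opposite sides of 0.

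The order of the chains by mean RPKM changed below the third place. In WT it was Il2rg, Il7r, Il21r, Il2rb, Il15ra, Il6st and Il4ra. Neighbours in that order whose library values overlapped were Il21r and Il2rb, Il15ra and Il6st, and Il6st and Il4ra. In DKO the order was Il2rg, Il7r, Il21r, Il4ra, Il2rb, Il6st and Il15ra. Neighbours within the last 4 overlapped, while Il4ra lay below Il21r without overlap. Il2rb thus stood beside Il21r in WT and beside Il4ra and Il6st in DKO.

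Ratios of RPKM within a library do not depend on its total. Il2rb was at 3.61%, 5.94% and 5.05% of Il2rg in WT replicates 1 to 3 and at 0.761%, 1.94% and 2.27% in DKO replicates 1 to 3. Il4ra was at 0.765%, 0.163% and 0.368% of Il2rg in WT and at 2.53%, 1.53% and 1.53% in DKO. Neither ratio overlapped between the genotypes. Il7r was at 38.4%, 21.6% and 11.6% of Il2rg in WT and at 90.7%, 56.5% and 28.8% in DKO, and these groups overlapped. The ratio of Il7r to Il2rb was 10.6, 3.63 and 2.30 in WT against 119, 29.1 and 12.7 in DKO. It did not overlap between the genotypes, and neither did Il2rb alone, although Il7r alone did. In each genotype the Set1 library had the highest ratio. The 4 private or beta chains Il2rb, Il7r, Il4ra and Il21r together came to 47.5%, 32.0% and 23.7% of Il2rg in WT and to 97.6%, 65.1% and 37.9% in DKO, so the gamma chain transcript exceeded their sum in each of the 6 libraries.

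**Figure D3:**
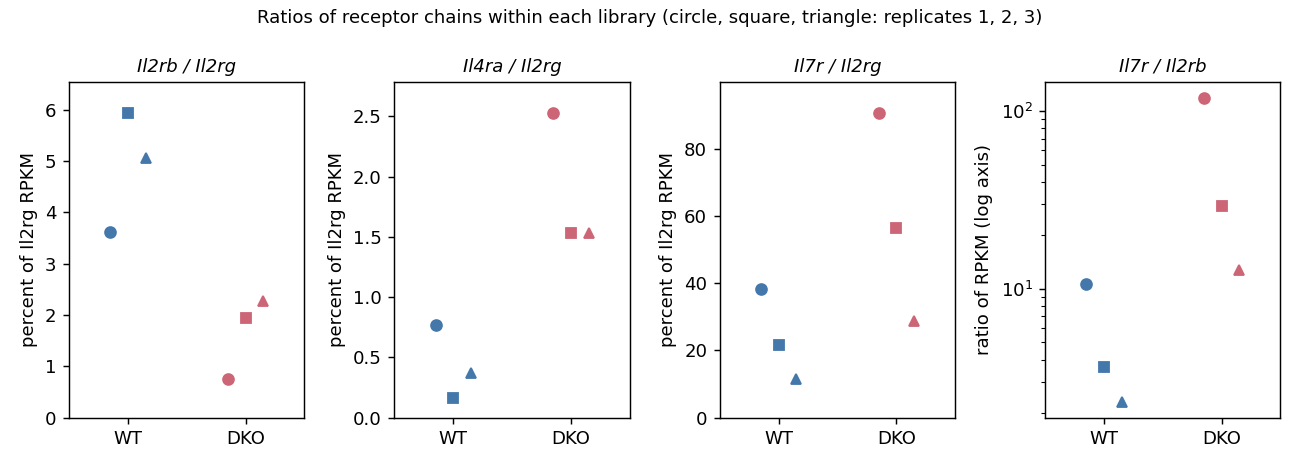
Il2rb, Il4ra and Il7r as a percentage of Il2rg RPKM and the ratio of Il7r to Il2rb (log axis) in each library, by genotype. The DKO ratios of Il7r to Il2rb, 12.7 to 119, all lie above the WT ratios, 2.30 to 10.6.

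The effect of sex could be examined with only 1 male library per group, and with the Set1 columns taken as female. With genotype, sex and their interaction in limma (2 residual degrees of freedom), none of the 7 chains passed for the interaction, the smallest unadjusted p being 0.241 for Il15ra, and 0 of all genes passed with 293 at an unadjusted p of 0.05. For Il4ra the male minus female contrast of the log2 difference was -0.06, and for Il7r it was 0.15.

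The genes whose profiles over the 6 libraries were most like each chain were named by Pearson's r of log2(RPKM + 1), as a description over 6 points that share genotype and depth. For Il2rb they were Cxcr6, a chemokine receptor of NKT cells, and Esyt1, both at 0.992. For Il7r they were Pcyt2 (0.994), an enzyme of phospholipid synthesis, and Ogt (0.986), an enzyme that adds sugars to proteins. Spop (0.986), a ubiquitin ligase adaptor, followed a gene without a symbol for Il4ra, and Mycbp2 and Golph3l (both 0.998) were closest to Il6st. Fam160b2 (0.996) and Arhgef2 (0.975) were closest to Il21r, Rtl8b (0.984) and Gm25789 (0.976) to Il15ra, and Nr2c2ap (0.971) came after a gene without a symbol for Il2rg. Among the chains themselves r was 0.923 between Il4ra and Il6st and -0.906 between Il7r and Il2rb.

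Genes that act with these receptors were taken from 9 lists chosen by role, with 91 of 144 listed genes in the table. With limma 0 of the 91 passed at an adjusted p of 0.05, while 5 lower and 3 higher genes passed unadjusted, where 8.14% of all genes were lower and 2.88% higher at that p. Their median log2 difference was -0.07, with 52 of the 91 below 0. Over all 10694 genes 6102 lay below 0 and 4592 above, with a median of -0.11, and the lists that follow, none of which was tested as a group, are to be read against those counts.

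Of the cytokine ligands, 5 of 16 had a row, and Il2, Il7, Il15, Il21 and Il6 were among those without one. Lif, an IL-6 family cytokine that signals through gp130, was at RPKM 5.41, 3.76 and 3.88 in WT replicates 1 to 3. In DKO replicates 1 to 3 it was at 0.0216, 0 and 0.0384, from 3, 0 and 1 reads (limma, adjusted p = 0.173). Lif was in the table only through WT libraries, which favours lower DKO values. Clcf1, another ligand of that family, was at 30.1 ± 13.1 in WT against 13.4 ± 8.36 in DKO (SD, n = 3 each), with groups that overlapped. Il4 was at 27.6, 51.6 and 40.9 in WT against 13.1, 57.4 and 21.7 in DKO, and Il13 at 8.79 ± 6.74 and 9.36 ± 1.41, both overlapping. Il4 and its receptor chain Il4ra were thus both detected in each of the 6 libraries.

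Among 4 further receptor chains with a row of 13 listed, Il12rb1, shared by the receptors for IL-12 and IL-23, was at RPKM 16.1, 18.1 and 15.1 in WT against 2.08, 8.71 and 8.97 in DKO, without overlap (limma, adjusted p = 0.336). Crlf2, which binds TSLP together with the IL-7 receptor chain, was at 7.90 ± 2.07 and 4.39 ± 2.36. Il27ra, a partner of gp130, was at 27.3 ± 5.44 and 35.3 ± 6.50, and Il11ra1, which binds IL-11, at 4.32 ± 2.70 and 6.21 ± 2.39 (SD, n = 3 each). These last 3 overlapped between the genotypes.

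Of 10 JAK and STAT genes with a row (11 were listed), none passed the test, adjusted or unadjusted. Their log2 differences lay above 0 for 9 of the 10, where 4592 of 10694 genes did, with a median of 0.30. Jak1 was at RPKM 71.5 ± 29.2 in WT against 89.4 ± 8.71 in DKO, and Jak3, whose product binds the gamma chain, at 12.6 ± 2.40 and 18.0 ± 6.27. Stat5a, a main effector of IL-7 and IL-15 signals, was at 1.06, 3.52 and 3.74 in WT against 3.53, 7.80 and 8.68 in DKO. Its groups overlapped only through WT replicate 3, and its log2 difference was 1.04 (limma, adjusted p = 0.522). Stat2, an effector of interferon receptors, was at 12.2 ± 1.85 and 20.1 ± 4.77 without overlap (limma, adjusted p = 0.513).

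Feedback genes had 4 of 8 listed genes with a row. Cish, an inhibitor induced by STAT5, was at RPKM 5.45, 4.92 and 10.7 in WT replicates 1 to 3 and at 46.2, 69.0 and 6.60 in DKO replicates 1 to 3. Both female DKO libraries lay far above WT, whereas the male DKO library lay within the WT range (limma, adjusted p = 0.359). Socs1, another inhibitor of cytokine signals, was at 0.488, 2.43 and 3.71 in WT and at 2.20, 7.96 and 9.91 in DKO, with overlap. Socs1 was in the table only with the help of DKO libraries. The kinase genes Pim2 and Pim3 were at 13.4 ± 4.86 and 17.3 ± 6.52, and at 6.93 ± 1.66 and 3.72 ± 2.66 (SD, n = 3 each).

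Of 18 tested negative regulators and trafficking genes, 11 lay below 0 and 7 above. Ptprc, the CD45 phosphatase, was at RPKM 121, 90.0 and 77.5 in WT against 217, 141 and 184 in DKO, without overlap (limma, adjusted p = 0.230). Cblb, a ubiquitin ligase that restrains T cell activation, was at 4.37 ± 0.910 and 8.84 ± 1.81 (SD, n = 3 each), also without overlap (limma, adjusted p = 0.481). Usp18 and Socs4, next by p, overlapped between the genotypes. Among 14 adaptors and kinases 12 lay below 0, where 6102 of 10694 genes did, and their median of -0.14 was close to the -0.11 of all genes. The kinase gene Akt1, at 72.3 ± 8.89 and 50.2 ± 17.4, had the smallest p (limma, adjusted p = 0.519). Hras, Akt2 and Lck followed with adjusted p from 0.740 to 0.771.

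Survival and growth targets had 8 of 10 log2 differences below 0, where 6102 of 10694 genes did, and those of Bcl2l1 (-0.02) and Osm (-0.16) were close to the median of all genes. None of the 10 passed, adjusted or unadjusted. Bcl2, the survival gene that IL-7 sustains in T cells, was at RPKM 5.26, 5.03 and 4.39 in WT against 7.94, 9.0 and 8.93 in DKO. Its groups did not overlap, and the log2 difference of 0.71 did not pass (limma, adjusted p = 0.546). Myc was at 48.8 ± 4.39 and 31.4 ± 9.87 without overlap (limma, adjusted p = 0.460), and Mcl1, another survival gene, at 61.6 ± 7.71 and 76.4 ± 16.3 (SD, n = 3 each) with overlap. Gzma, given above, completed the 4 genes with the smallest p.

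Transcription factors known to act on receptor genes went both ways, with 9 of 17 below 0. Runx3, which acts with T-box factors on Il2rb in CD8 T cells, was at RPKM 14.2, 6.60 and 11.01 in WT against 0.723, 1.89 and 3.11 in DKO, without overlap (limma, log2 difference -2.03, adjusted p = 0.205). Tbx21, which encodes the T-box factor T-bet, was at 2.17, 6.94 and 6.70 in WT against 0.137, 0.277 and 4.99 in DKO, with overlap through the male DKO library. Runx3 and Tbx21 were in the table only with the help of WT libraries, which favours lower DKO values. Ikzf1, encoding Ikaros, was at 99.0 ± 8.34 and 162 ± 12.9 without overlap (limma, adjusted p = 0.242). Ets1 was at 76.6 ± 23.1 and 111 ± 14.2 (SD, n = 3 each) with overlap.

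Interleukin and interferon receptor chains outside these families had 10 of 25 listed genes with a row and a median log2 difference of -0.27. Il18r1, the IL-18 receptor chain, was at RPKM 13.8, 20.4 and 9.34 in WT against 3.95, 2.13 and 5.59 in DKO, without overlap (limma, log2 difference -1.67, adjusted p = 0.230). Il17ra was at 13.5 ± 1.90 and 8.08 ± 0.777 and Ifnar1 at 10.2 ± 4.21 and 5.73 ± 0.922, both without overlap (limma, adjusted p = 0.522 and 0.587). Ifnar2 overlapped, at 21.3 ± 7.11 and 13.5 ± 3.46 (SD, n = 3 each). As for Il2ra itself, the regulatory T cell markers Foxp3, Ctla4 and Ikzf2 had no row, and Tnfrsf18, with RPKM 55.0 to 77.6 in WT against 52.5 to 110.5 in DKO, overlapped.

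**Figure D4:**
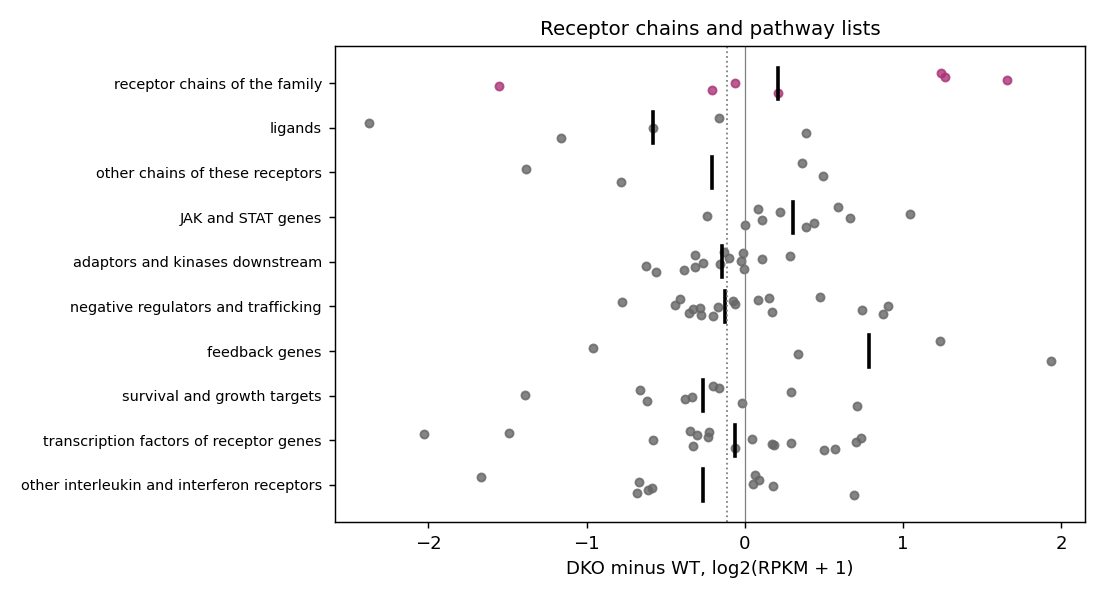
DKO minus WT difference, log2(RPKM + 1), of each tested receptor chain (top row) and of each tested gene of 9 pathway lists, with list medians as black bars and the median of all genes dotted. The receptor chains run from -1.56 for Il2rb to 1.66 for Il4ra, and the gene lying lowest is Lif at -2.38.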

How the data were processed

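RPKM values for 10772 rows and 6 libraries were deposited by the authors, with a gene length that the deposited RPKM rests on (a column of other values, in bases). Per the submitters' processing notes, Bowtie and mm9 were used. The sources used here do not give settings, annotation or counting. Per the labels' protocols, polyadenylated RNA was amplified by a published method and indexed, so reads are not independent molecules. Dividing RPKM times length by a step found for each library gave whole reads, within 0.05, for 99.6% to 100.0% of values.

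Where a symbol had several rows the one with the highest mean was kept (10755 genes), and genes at RPKM 1 or more in at least 3 libraries were tested (10694). limma 3.58.1 (R 4.3.3) was fitted to log2(RPKM + 1) over all of them, with a variance trend, 4 residual degrees of freedom and Benjamini-Hochberg adjustment at 0.05. The median standard error was 0.43. The fit was also run on simulated data with independent libraries and the same log2 spread set for every gene. Such data differ from these libraries, so the run is no support for the results. Python 3.11.15, numpy 2.4.6, pandas 2.3.3 and matplotlib 3.10.9 were used.

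The members and lists were chosen with earlier results of these data known. The text names all members with a row, on each list the 4 genes of smallest p, both deleted genes, 2 most alike genes per member and regulatory T cell markers. Other markers were named after their values were seen.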

Additional observations from a re-analysis of the deposited data

How the results depend on the processing

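Each difference was recomputed under 18 alternatives, of which the 4 shallower libraries were chosen after seeing the data. None of the 7 receptor chains passed an adjusted p of 0.05 under any of them. Il2rb (-2.07 to -1.10), Il7r (0.85 to 1.68), Il4ra (1.31 to 2.18) and Il6st (1.06 to 1.63, under 17 alternatives, since the stricter filter removed it) kept their direction. An unadjusted p of 0.05 was passed under 18 alternatives for Il2rb, 17 for Il4ra, 16 for Il7r and 12 for Il6st. With 1 library left out the log2 difference ran from -1.90 to -1.10 for Il2rb, 0.85 to 1.68 for Il7r, 1.31 to 2.01 for Il4ra and 1.06 to 1.51 for Il6st. Il15ra reversed to -0.09 with array weights, -0.12 with a pseudocount of 0.1 and -1.15 with voom on the recovered reads, and ranged from -0.32 to 1.16 with 1 library left out. Il2rg reversed to 0.007 in the 4 shallower libraries and 0.036 with median log2 ratio scaling. Il21r ranged from -0.397 to 0.008 with 1 library left out, turning without WT replicate 3. Il13 reversed to -0.232 in the 4 shallower libraries and -0.012 with array weights, Usp18 to -0.089 in the 4 shallower libraries, and Kdm6a to -0.173 with voom. With 1 library left out Il13 ranged from -0.311 (without WT replicate 1) to 0.918, Socs4 from -1.337 to 0.082 (without DKO replicate 2) and Kdm6a from -0.312 (without WT replicate 3) to 0.415. The cause was not tested. Of all genes 9 passed, against 1 in the 4 shallower libraries, 24 with array weights and 0 with voom (1677 at an unadjusted p of 0.05). With 1 library left out the number ran from 0 to 13. It was 2 without WT replicate 1, 0 without WT replicate 2 and 0 without WT replicate 3. Of the pathway genes 0 passed, and 1 without the variance trend (Lif, adjusted p = 0.0414). Of the marker genes named, Thy1 passed without DKO replicate 2 (log2 difference -2.30, adjusted p = 0.033), and Cd5, Klrb1c and Cd68 passed under none of their alternatives. Libraries matched by replicate deviated together at r of 0.226, 0.146 and 0.075, and unmatched ones at r of -0.176 to 0.035, below each matched pair. These r are small and the males carry no number, so pairing was not established. With the replicate block 9 genes and 0 receptor chains passed, and Il7r had the smallest adjusted p of the chains, 0.0812. Low read numbers limit Il15ra and the WT values of Il4ra, which rest on as few as 6 and 24 reads. The 6 reads of Il15ra came from DKO replicate 1, the deepest library.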
